A study of Mus musculus with 4 samples.

Results

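Activity-induced immediate early genes are the genes a neuron switches on first when it fires. The 10 genes Fos, Fosb, Junb, Egr1, Egr2, Npas4, Nr4a1, Arc, Ier2 and Dusp1 were chosen by their gene names in the deposited count table, and all 10 were found among its 29300 genes. Their transcripts were measured by RNA sequencing in the hippocampus of C57BL/6 male mice aged 7 to 8 months, on day 1 after the operation. The 2 control mice received isoflurane anesthesia and tramadol analgesia without an operation, and the 2 surgery mice received the same agents followed by an open tibial fracture with an intramedullary nail. Both groups therefore carry the anesthesia and the analgesia, and the comparison is of the fracture on top of them. The surgery mice are the mouse model of perioperative neurocognitive disorder (PND). Each library is 1 mouse, and the mice were not pooled.

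In a resting neuron these genes are transcribed at a low level. Calcium entering through synaptic receptors and channels activates kinases that phosphorylate factors already bound at their promoters and enhancers, such as CREB and the serum response factor, so that transcription starts without new protein synthesis. Most of the products are transcription factors that act on a later wave of genes for synapses and secreted signals, while Arc acts at the synapse itself. The transcripts rise within minutes and decay quickly, and in the hippocampus they are widely used as marks of recent neuronal activity and of memory formation.

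The RefSeq promoters (GRCm38.p6) of 7 of the 10 members were used here, each as 250 bases before and 50 after a transcription start, and those of Arc, Egr1 and Ier2 were not used here. The following 4 promoters are shown because the transcripts of Fos, Nr4a1 and Npas4 differed between the surgery mice, while those of Fosb were level in all 4 mice. Each is written 5′ to 3′ on the strand of the gene, and capitals mark the CRE core, TGACG on either strand, which CREB recognises as part of its site.
Fos, chr12:85473640-85473939, plus strand: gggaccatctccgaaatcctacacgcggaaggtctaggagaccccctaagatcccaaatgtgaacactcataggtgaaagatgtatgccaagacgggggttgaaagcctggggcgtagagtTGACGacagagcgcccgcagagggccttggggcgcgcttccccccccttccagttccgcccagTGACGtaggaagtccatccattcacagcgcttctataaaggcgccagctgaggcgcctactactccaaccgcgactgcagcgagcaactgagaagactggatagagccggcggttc
Nr4a1, chr15:101266596-101266895, plus strand: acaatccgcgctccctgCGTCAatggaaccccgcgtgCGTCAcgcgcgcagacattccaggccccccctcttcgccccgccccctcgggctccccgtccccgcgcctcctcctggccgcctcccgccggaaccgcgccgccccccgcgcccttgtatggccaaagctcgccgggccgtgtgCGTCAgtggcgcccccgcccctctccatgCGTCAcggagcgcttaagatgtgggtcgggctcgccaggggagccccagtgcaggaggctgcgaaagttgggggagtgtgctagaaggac
Npas4, chr19:4989922-4990221, minus strand: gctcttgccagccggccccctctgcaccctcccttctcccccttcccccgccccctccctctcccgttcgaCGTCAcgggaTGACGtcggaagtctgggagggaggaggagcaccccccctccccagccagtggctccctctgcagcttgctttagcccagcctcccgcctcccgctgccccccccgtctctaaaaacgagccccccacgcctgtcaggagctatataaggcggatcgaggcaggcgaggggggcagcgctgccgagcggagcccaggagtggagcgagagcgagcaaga
Fosb, chr7:19309996-19310295, minus strand: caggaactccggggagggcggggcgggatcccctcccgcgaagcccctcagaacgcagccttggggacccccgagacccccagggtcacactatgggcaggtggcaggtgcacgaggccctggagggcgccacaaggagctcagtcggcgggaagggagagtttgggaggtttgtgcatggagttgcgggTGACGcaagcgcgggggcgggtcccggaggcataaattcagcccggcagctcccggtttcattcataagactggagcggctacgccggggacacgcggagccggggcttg

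The CRE core was found in at least 1 promoter of each of the 7 members and in 9 of their 11 promoters, against 20.8% of all 32851 promoters of the same length. Of the 11, 5 belong to Egr2, and 3 of these overlap and read the same CRE cores and the same CArG box. The Fos promoter holds it at bases -129 to -125 and -66 to -62 from the start, that of Nr4a1 holds it 4 times, that of Npas4 2 times and that of Fosb once. The full palindrome TGACGTCA, which contains the core, occurred in Dusp1 alone among the members and in 1.79% of all promoters. A CArG box, the element bound by the serum response factor, was found in 4 promoters, all of Egr2 and at 2 distinct sites, against 1.63% of all promoters. The AP-1 motif TGANTCA (7.81% of all promoters) and the EGR motif GCGTGGGCG (0.612%), both searched on either strand, occurred in none of the 11. These matches describe letters in a short window, and binding was not measured. The 4 promoters printed were chosen by the levels of their transcripts, and a link between the number of motifs and the levels was not tested.

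The 4 libraries held 15763432 to 18573386 counts. Levels are given as CPM (counts-per-million), that is, read counts relative to a library total scaled by TMM. The groups were tested with edgeR (quasi-likelihood F-test) on the 17144 genes that passed a filter on low counts, and p-values were adjusted over all of these by Benjamini-Hochberg. All 10 members passed the filter. The 8 markers of hippocampal fields and the 8 of neurons were detected in every library, with summed levels of 1110.2 to 1243 and 6607 to 6972 CPM. The libraries differed in markers of another tissue. The 6 choroid plexus markers summed to 127 and 5407 CPM in the control mice and 2031 and 3452 CPM in the surgery mice, and the source of these transcripts was not tested.

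None of the 10 members passed the test at an adjusted p-value of 0.05, and none had an unadjusted p under 0.05 by edgeR or by DESeq2. Of all genes tested, 26.0% passed, 13.1% higher and 12.8% lower in the surgery mice. The log2 fold changes of the members ran from -0.51 for Npas4 to 1.04 for Egr2 with a median of -0.17, against a median of 0.01 over all genes tested, and 8 of the 10 were negative. Their adjusted p-values ran from 0.15 to 0.92 by the same edgeR test. The groups did not overlap for Npas4, Ier2 and Dusp1, all lower in the surgery mice, and overlapped for the other 7. Over all genes tested, 32.2% had non-overlapping groups with the surgery mice lower, and 65.5% had them in either direction. In bulk tissue, fewer cells that express a gene and less of its RNA per cell cannot be told apart.

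**Figure D1:**
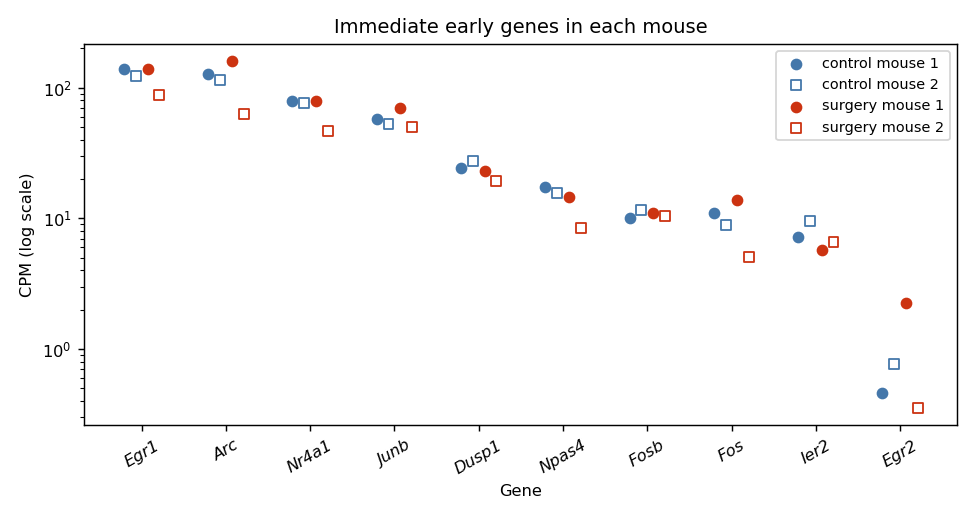
CPM of the 10 immediate early genes in each mouse on a log scale, ordered by mean, with circles for mouse 1 and open squares for mouse 2 of the control (blue) and surgery (red) groups. The control mice lie close together for most genes, whereas surgery mouse 2 lies below both control mice for every gene except Fosb.

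Fos, Fosb and Junb encode subunits of AP-1, a dimer of a Fos and a Jun protein that activates the later genes. Fos (mm10 chromosome 12, 85473890 to 85477273, plus strand) had 10.9 and 8.86 CPM in the control mice and 13.7 and 5.04 CPM in the surgery mice. The highest and the lowest level of Fos were thus both in surgery mice, and the groups overlapped. Its level was 9.89 ± 1.45 CPM in control and 9.38 ± 6.15 CPM in surgery mice (SD, n = 2 per group), and the log2 fold change was -0.08 (SE, the standard error, 0.42, adjusted p = 0.91, edgeR). Fosb (chromosome 7, 19302696 to 19310051, minus strand), whose short splice form accumulates with repeated activity, had 10.04 and 11.6 CPM in the control mice and 10.9 and 10.4 CPM in the surgery mice. Its surgery mice lay between its control mice, and the log2 fold change was -0.03 (SE 0.15, adjusted p = 0.92, edgeR). The gene counts do not separate its splice forms. Junb (chromosome 8, 84974484 to 84978718, minus strand), a Jun protein that can restrain c-Jun, had 57.2 and 52.7 CPM in the control mice and 69.7 and 49.6 CPM in the surgery mice. Surgery mouse 1 was above and surgery mouse 2 below both control mice, and the log2 fold change was 0.12 (SE 0.16, adjusted p = 0.62, edgeR). Of its exon bases, 173 lie opposite those of Prdx2, which limits its count where the counting used no strand, and 4.74% of the 75 nt stretches of its transcripts are found in 1 further gene.

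Egr1 and Egr2 encode zinc finger transcription factors of the EGR family, of which Egr1 has been tied to late phases of synaptic plasticity. Egr1 had 139.9 and 124 CPM in the control mice and 139 and 87.2 CPM in the surgery mice. Surgery mouse 1 lay with the control mice and surgery mouse 2 below them. The means were 132 ± 11.5 and 113 ± 36.7 CPM (SD, n = 2 per group), a log2 fold change of -0.22 (SE 0.20, adjusted p = 0.47, edgeR). Egr2 (chromosome 10, 67535475 to 67542188, plus strand) was the least abundant member. Its reads numbered 8 and 14 in control mice against 36 and 6 in surgery mice, or 0.464, 0.766, 2.26 and 0.356 CPM. The log2 fold change of 1.04 (SE 0.82, adjusted p = 0.40, edgeR) became -0.80 without surgery mouse 1. At this depth a 95% interval of the fold change from 0.523 to 8.11 was left.

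Npas4 encodes a transcription factor that responds to calcium entry in neurons and guides the formation of inhibitory synapses. Npas4 (chromosome 19, 4984355 to 4989971, minus strand) had 17.3 and 15.6 CPM in the control mice and 14.6 and 8.47 CPM in the surgery mice. Both surgery mice were below both control mice, though the distance was small for surgery mouse 1. The means were 16.4 ± 1.21 and 11.5 ± 4.34 CPM (SD, n = 2 per group), a log2 fold change of -0.51 (SE 0.25), and its adjusted p of 0.17 by edgeR missed the threshold. Nr4a1, an orphan nuclear receptor that acts without a known hormone, was measured on chromosome 15, 101266846 to 101274792, plus strand. Nr4a1 had 79.5 and 75.9 CPM in the control mice and 78.9 and 46.7 CPM in the surgery mice. As for Egr1, surgery mouse 1 lay within the control range and surgery mouse 2 below it, and the log2 fold change was -0.31 (SE 0.22, adjusted p = 0.35, edgeR).

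Arc is the member that acts at the synapse, where its protein promotes the removal of AMPA receptors from the membrane. Arc (chromosome 15, 74669083 to 74672570, minus strand) had 127 and 114 CPM in the control mice and 159 and 63.3 CPM in the surgery mice. The surgery mice stood on either side of the control mice. Their mean of 111 ± 67.6 CPM lay close to the 120.3 ± 8.95 CPM of the control mice (SD, n = 2 per group), and the log2 fold change was -0.12 (SE 0.37, adjusted p = 0.85, edgeR).

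Ier2, a small nuclear protein, and Dusp1, a phosphatase that switches off MAP kinases and so limits the response, varied least between the surgery mice apart from Fosb. Ier2 (chromosome 8, 84661331 to 84662852, minus strand) had 7.20 and 9.52 CPM in the control mice and 5.71 and 6.64 CPM in the surgery mice. Its groups did not overlap, and the log2 fold change was -0.44 (SE 0.21, adjusted p = 0.18, edgeR). Dusp1 (chromosome 17, 26505590 to 26508519, minus strand) had 24.1 and 27.4 CPM in the control mice and 22.9 and 19.4 CPM in the surgery mice. Both surgery mice were below both control mice, and the log2 fold change was -0.29 (SE 0.13, the smallest of the 10, adjusted p = 0.15, edgeR).

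**Figure D2:**
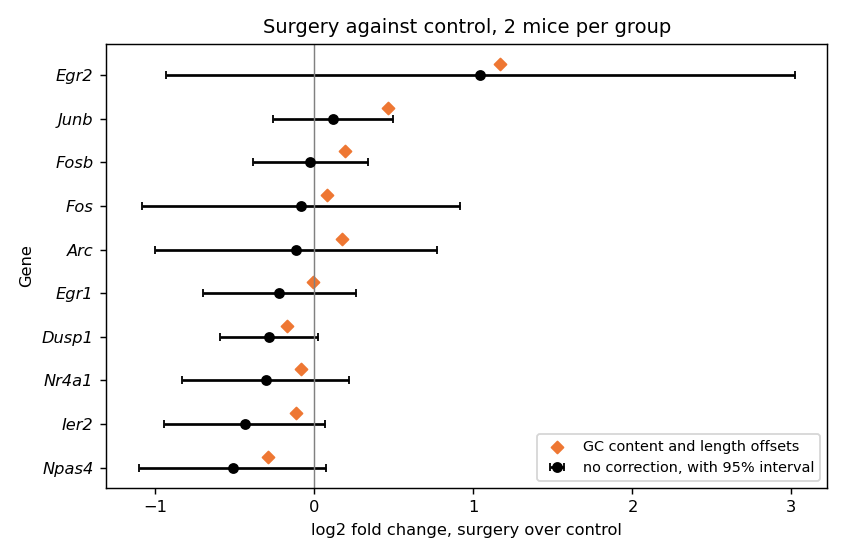
Log2 fold change of surgery over control mice for each member (black points, bars are 95% intervals from edgeR's fit, n = 2 mice per group) and the same with offsets for transcript GC content and length (orange diamonds). Every black interval crosses 0, and the diamonds lie to the right of the points.

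In the fit without offsets, the 95% interval of the fold change ended below 1.5 for 7 of the 10 members. It was within 1.5-fold of no change in both directions for 2, Junb and Fosb. For Arc it ran from 0.4997 to 1.70, and for Fos from 0.472 to 1.89, so that a 1.5-fold change in either direction was not excluded for either gene. The median standard error of the members was 0.21 on the log2 scale, against 0.14 over all genes tested. With the offsets for GC content and length, the log2 fold change was 0.46 (SE 0.16) for Junb and 0.19 (SE 0.15) for Fosb. Intervals of that fit were not computed, and a 1.5-fold rise of Junb is not excluded by these values.

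The surgery mice lay far apart for most members. Surgery mouse 1 was higher than surgery mouse 2 in 9 of the 10 members, Ier2 being the exception, and by at least 1.5-fold in 6 of them, namely Egr2, Fos, Arc, Npas4, Nr4a1 and Egr1. Among all genes tested, 3.94% were higher in surgery mouse 1 by that much and 7.96% were lower. Of the 9 members with a mean of at least 5 CPM, 5 were higher by at least 1.5-fold, against 0.844% of the 12088 genes at that level. These mice belong to 1 group, so that the values describe a pair of animals and carry no test.

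Fos was 2.73-fold higher in surgery mouse 1 than in surgery mouse 2, with a 95% interval from 2.11 to 3.55 that covers counting error only. It had rank 2 of the 12088 genes ordered by this ratio, and Arc rank 3 with a ratio of 2.51 (2.34 to 2.70). Npas4 followed at rank 40 with 1.72-fold, Nr4a1 at rank 46 with 1.69-fold and Egr1 at rank 69 with 1.595-fold. Junb was 1.41-fold higher and Dusp1 1.18-fold higher. For Fosb the ratio was 1.05 (0.848 to 1.31) and for Ier2 0.860 (0.645 to 1.14), both within counting error of equality. Egr2, below that level, had a ratio of 6.35 with an interval from 2.65 to 18.4. Among the 9 members with a mean of at least 5 CPM, the ratios thus ran from Fos and Arc at the high end to Fosb and Ier2 at the low end.

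The control mice were closer. Egr2, with few counts, was the 1 member at least 1.5-fold apart between them (11.8% of all genes tested were), and the median absolute log2 ratio was 0.18 for the members, against 0.14 over all genes tested. Between the surgery mice it was 0.72 for the members and 0.14 over all genes tested. Relative to the control mice, surgery mouse 1 was above both for Fos, Arc, Junb and Egr2 (4 of 10, background 41.2%) and surgery mouse 2 was below both for 9 of 10 (background 40.7%). These backgrounds cover genes of every GC content, whereas the members are rich in G and C. In the GC-rich eighths of the genes that hold the members, the median log2 fold changes of surgery over control mice were -0.17, -0.25 and -0.34. The summed level of the members was 473 and 439.8 CPM in the control mice, 517 CPM in surgery mouse 1 and 297 CPM in surgery mouse 2.

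**Figure D3:**
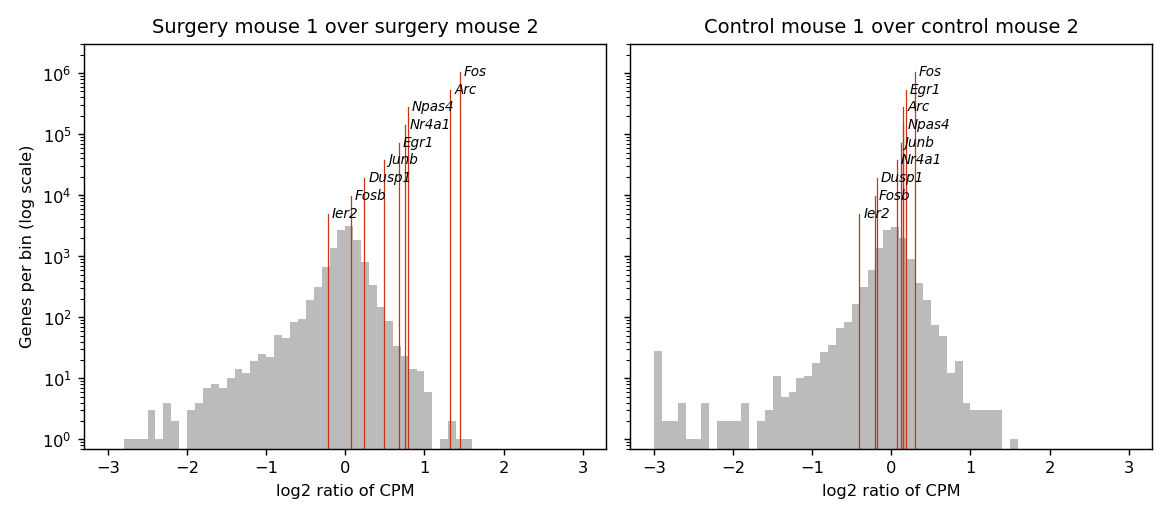
Distribution over 12088 genes with a mean of at least 5 CPM of the log2 ratio of CPM between the surgery mice (left) and between the control mice (right), with genes per bin on a log scale, values below -3 drawn in the last bin, and red lines for the 9 members at this level, whose heights only space the names. Fos (2.73-fold) and Arc (2.51-fold) lie at the right edge on the left side, and all 9 members lie near the centre on the right side.

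The calls depended on which surgery mouse was used. Without surgery mouse 1, 5 members were lower in the remaining surgery mouse, with log2 fold changes of -0.99 for Fos, -0.97 for Npas4, -0.94 for Arc, -0.75 for Nr4a1 and -0.61 for Egr1 and adjusted p-values from 0.0013 to 0.024 by edgeR, where 11.6% of all genes tested were lower. Without surgery mouse 2, Arc (0.41) and Egr2 (1.86) were higher, with adjusted p-values of 0.019 and 0.039 by edgeR, where 8.88% of all genes tested were higher. Each of these fits has a single surgery mouse, which is assumed to vary like the control mice. Arc passed the test in opposite directions in the 2 fits. Leaving out either control mouse left none of the 10 past the threshold, where 19.6% and 13.5% of all genes tested passed without control mouse 1 and 2.

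Markers of other cell types differed between the same surgery mice. The 6 oligodendrocyte markers were all higher in surgery mouse 1, with a summed level of 6084 against 3927 CPM (6183 and 5329 CPM in the control mice). The 6 endothelial markers were all higher in surgery mouse 2, at 291 against 223 CPM (196 and 200.2 CPM in the control mice), and so were the 6 choroid plexus markers. Neuron markers summed to 6891 and 6607 CPM, with 6 of 8 higher in surgery mouse 1, and hippocampal field markers to 1243 and 1110.2 CPM, with 8 of 8 higher. Summed astrocyte markers (2149 and 2072 CPM) and microglia markers (285 and 299 CPM) stood close, as did striatum markers (81.9 and 85.7 CPM), and those of red blood cells were 11.2 and 7.29 CPM. No marker was at 0 in any library. The part of these differences in the members' values was not tested.

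Levels can be compared between genes only per length. In CPM per kilobase of exon, averaged over the 4 mice, Arc had the highest level, at 37.8 ± 13.0, followed by Egr1 at 27.3 ± 5.50, Junb at 24.9 ± 3.85 and Nr4a1 at 20.02 ± 4.50 (SD, n = 4). These 4 formed an upper tier whose neighbours overlapped in range. In surgery mouse 2 Junb, at 21.6, was above Arc, at 20.7. Dusp1 (7.08 ± 0.995), Ier2 (4.77 ± 1.07), Fos (4.10 ± 1.56) and Npas4 (3.38 ± 0.930) formed a middle tier in which neighbours also overlapped. Fosb (1.72 ± 0.109) and Egr2 (0.283 ± 0.259) lay below all of these without overlap. The gaps between Nr4a1 and Dusp1, between Npas4 and Fosb and between Fosb and Egr2 held in each of the 4 mice. Among the middle genes Fos exceeded Npas4 in 3 of the 4 mice.

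The members are rich in G and C. The GC content of their transcripts ran from 52.8% in Dusp1 to 62.6% in Junb, above the median of 49.97% over the 17120 genes tested with a GC content, and 64.8% of these genes lay below the lowest member. In these libraries the log2 fold change fell with GC content across genes (Spearman's rho -0.64, a value over genes, not over independent samples). Split into eighths by GC content, genes of the sixth, seventh and eighth had median log2 fold changes of -0.17, -0.25 and -0.34, and these eighths held 3, 4 and 3 members. Set against the median of its own eighth, the log2 fold change of Npas4 was -0.26, that of Ier2 -0.10, that of Dusp1 -0.11, that of Nr4a1 -0.05, that of Egr1 0.03, that of Fos 0.09, that of Arc 0.22, that of Fosb 0.23, that of Junb 0.46 and that of Egr2 1.21. These 10 differences were positive for 6 members and negative for 4.

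With offsets for each library's trend with GC content and transcript length, the median log2 fold change of the members was 0.03, with 5 negative and 5 positive. None passed the test in this fit, where 1.74% of all genes tested did, 0.612% higher and 1.13% lower. Npas4 was at -0.29 (adjusted p = 0.56), Ier2 at -0.12 (0.79) and Dusp1 at -0.17 (0.49), and Junb at 0.46 with a standard error of 0.16 had the lowest adjusted p of 0.15 by edgeR. On this scale the groups no longer overlapped for 2 members, Junb and Fosb, both higher in the surgery mice, and overlapped for Npas4, Ier2 and Dusp1. Over all genes tested, 21.7% had non-overlapping groups with the surgery mice higher on this scale and 30.9% with them lower. The standard errors of Fos and Arc were 0.42 and 0.37 with and without the offsets. With the replicate number as a block beside the offsets, Junb was at 0.45 (SE 0.09) and passed the test (adjusted p = 0.016, edgeR). In that fit 753 of 17144 genes were higher.

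**Figure D4:**
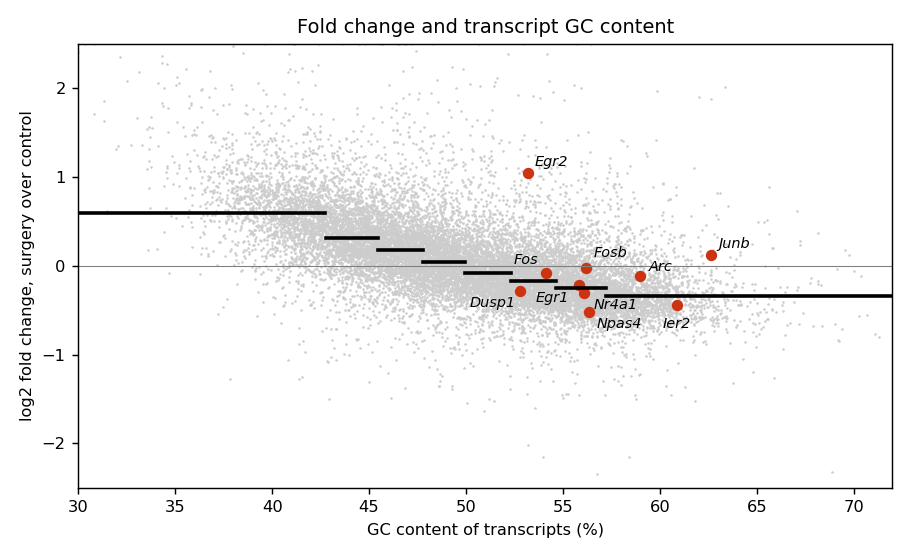
Log2 fold change of surgery over control mice against the GC content of a gene's transcripts (%) for the genes tested (grey, drawn between 30 and 72% GC and within 2.5 of 0, with genes beyond these limits left out), with the median of each eighth of the genes (black bars) and the 10 members (red). The eighth medians fall from 0.60 to -0.34, and 6 of the 10 members lie above and 4 below the bar of their own eighth.

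The genes around the members were taken as 5 lists, of which 105 of 106 genes were tested. Of these, 13 were higher and 16 lower in the surgery mice, where 13.1% and 12.8% of all genes tested were. With the GC and length offsets 2 were higher, Creb1 and Mcl1, and no other gene of the lists passed the test.

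Of 30 other rapid response genes, 1 was higher, 2 were lower and 27 did not pass, with a median log2 fold change of 0.02. Mcl1, an inhibitor of apoptosis, rose by 0.55 on the log2 scale (standard error 0.08, adjusted p = 0.0057, edgeR) and was at 0.60 with the offsets. Per1, a clock gene that also answers to glucocorticoids, fell by 0.36 (adjusted p = 0.042) and Gadd45g, of the stress-induced GADD45 family, fell by 0.57 (adjusted p = 0.0498, edgeR). With the offsets Per1 was at -0.07 and Gadd45g at -0.27. The list holds 7 relatives of the members from the Fos, Jun, EGR and NR4A families, named here after their values were seen, and none of these passed. Egr3 had 127 and 129 CPM in the control mice and 127 and 119 CPM in the surgery mice, and Jun had 132 and 122 CPM and 129 and 125 CPM. Surgery mouse 1 exceeded surgery mouse 2 by 1.42-fold for Egr4, 1.29-fold for Nr4a2, 1.15-fold for Nr4a3, 1.07-fold for Egr3 and 1.03-fold for Jun, and the ratios of Fosl2 and Fosl1 were 0.979 and 0.975. For Atf3 and Maff, more distant bZIP factors of the list, the ratios were 1.49 and 0.890. The groups did not overlap for 3 of the 7, Fosl1, Fosl2 and Nr4a3, where 65.5% of all genes tested had non-overlapping groups in either direction.

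Between the surgery mice the other rapid genes went both ways. Dusp5, a phosphatase of ERK, was the 1 gene at least 1.5-fold higher in surgery mouse 1, at 25.1 against 15.5 CPM. The 6 genes at least 1.5-fold higher in surgery mouse 2 were Klf2, Klf4, Ier3, Cyr61, Apold1 and Zfp36. Klf4 had 8.21 against 15.0 CPM, Apold1 had 5.08 against 9.48 CPM, and Cyr61 had 3.57 against 8.30 CPM. Klf2, Klf4 and Apold1 are strongly expressed in endothelial cells, whose markers were higher in the same mouse, and the link was not tested.

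Of 25 later activity-induced genes, 3 were higher and 1 was lower. Homer1, a scaffold of the postsynaptic density, had 60.4 and 59.5 CPM in the control mice and 118 and 96.0 CPM in the surgery mice, a log2 fold change of 0.84 (SE 0.11, adjusted p = 0.0050, edgeR). The gene count does not separate its short activity-induced form from the constitutive long form. Rgs2, which dampens G protein signals, rose by 0.80 and Scg2, a secretory granule protein, by 0.37, with adjusted p-values of 0.0079 and 0.039 (edgeR). Vgf, a neuropeptide precursor, fell by 0.54 (adjusted p = 0.024, edgeR). With the offsets Homer1 was at 0.38, Rgs2 at 0.48, Scg2 at 0.17 and Vgf at -0.18, and none of the 4 passed. In 20 of the 25 genes surgery mouse 1 was above surgery mouse 2, in 4 by at least 1.5-fold. Among these, Inhba, a subunit of activin, had 12.1 against 5.98 CPM and Gpr3, a receptor that raises cAMP, had 5.39 against 2.37 CPM.

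Among 17 tested transcription factors and co-activators that act on these promoters, 4 were higher and 4 lower. Creb1, which encodes the factor that binds the CRE, had 29.7 and 29.8 CPM in the control mice and 54.4 and 57.5 CPM in the surgery mice. It rose by 0.91 on the log2 scale (standard error 0.08, adjusted p = 0.0043, edgeR) and was at 0.49 with the offsets (adjusted p = 0.044). Mef2c and Mef2a, factors of calcium-dependent transcription, rose by 0.59 and 0.54, while Mef2d fell by 0.33. Crtc1, a co-activator of CREB, fell by 0.44 and Mkl1, a co-activator of the serum response factor, by 0.47. The adjusted p-values of these 5 genes were 0.0083 or lower by edgeR, and with the offsets their log2 fold changes were 0.18, 0.12, -0.09, -0.19 and -0.19 in the same order.

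Of 18 kinases that carry the signal to the nucleus, 3 were higher and 8 lower. Camkk1, a kinase that activates CaM kinases, fell by 0.49, Map2k2 of the ERK cascade by 0.41 and Mapk3, which encodes ERK1, by 0.30, while Braf, Camk4 and Rps6ka3 rose by 0.41, 0.42 and 0.44. Their adjusted p-values ran from 0.0046 to 0.036 by edgeR, and none passed with the offsets. Of 15 dimer partners, co-repressors and feedback genes, 2 were higher and 1 was lower. Spred1, an inhibitor of Ras signals, rose by 0.79 and Nab1, a co-repressor of the EGR factors, by 0.52, and Arnt2, the dimer partner of Npas4, fell by 0.29 (adjusted p = 0.0045, 0.010 and 0.015, edgeR). In contrast to the members, neither surgery mouse was 1.5-fold or more above the other in any gene of the factor, kinase and partner lists.

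**Figure D5:**
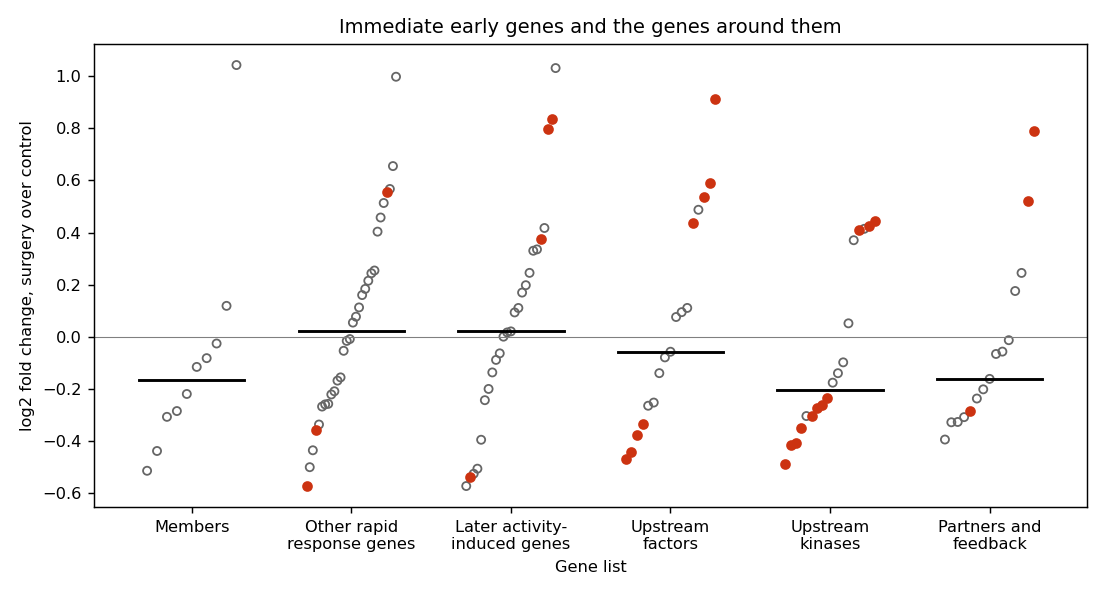
Log2 fold change of surgery over control mice for the members and for the 5 lists of genes around them, with filled red points for genes with an adjusted p under 0.05 (edgeR), open points for the others and black bars for the medians. The column of the 10 members holds no red point, and every other column holds red points, on both sides of 0.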

How the data were processed

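The authors enriched poly(A) RNA, sequenced it from both ends, aligned it to mm10 (HISAT) and deposited raw counts per gene and mouse. The submitters' processing notes name HISAT2 2.1.0, TopHat2, Bowtie2 2.2.3 and HTSeq 0.6.0 without their roles. The use of strand is not given in the sources used here. The deposited table also holds the authors' own comparison (mean signal, fold change as a ratio, its log2 and p-values), which was not used. Samples were grouped by treatment label.

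Counts were filtered with filterByExpr (minimum count 10), scaled by TMM and tested in R 4.3.3 with edgeR 4.0.16 (glmQLFit, condition as the only term), adjusted by Benjamini-Hochberg over all genes tested. Alternatives used DESeq2 1.42.0, other scalings and filters, the replicate number as a block, leaving out each mouse, and offsets from smooth trends (mgcv 1.9.3, basis size 8) with GC content and exon length from GENCODE M21. Calls reported for lists are from the fit without offsets unless stated.

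The members and lists were chosen with earlier results of these data known. Named were all members and, in each list, up to 3 genes per direction with the lowest adjusted p among passing genes averaging 1 CPM or more, and every gene past the study's fold limits where there were 3 or fewer. The replicates differed by more than sampling noise (chi-square per degree of freedom 13.4 and 8.45). Intervals of ratios between mice cover counting error only. An exact permutation test of 2 against 2 mice cannot go below p = 0.33.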

Additional observations from a re-analysis of the deposited data

How the results depend on the processing

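No member passed the test under any of the alternatives that keep all 4 mice, with 1 exception. With the replicate block and the GC content and length offsets together, Junb was higher at 0.45 (1 member called, adjusted p = 0.016, edgeR). In the same fit 753 of all 17144 genes tested were higher. The adjusted p-values of Junb ran from 0.15 to 0.72 under the other alternatives with all mice. The direction changed for values near 0. With the GC and length offsets Fos was at 0.078, Fosb at 0.19 and Arc at 0.18, and with the block and the offsets Fosb was at 0.19 and Arc at 0.039. Scaling by library totals gave 0.021 for Fosb and the minimum count of 50 gave 0.00046, which left Egr2 untested.

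With each mouse left out once, members called ran from 0 to 2 higher and from 0 to 5 lower. The log2 fold changes ran from -0.99 to 0.48 for Fos, -0.13 to 0.079 for Fosb, -0.16 to 0.35 for Junb, -0.61 to 0.085 for Egr1, -0.80 to 1.86 for Egr2, -0.97 to -0.16 for Npas4, -0.75 to 0.029 for Nr4a1, -0.94 to 0.41 for Arc, -0.63 to -0.22 for Ier2 and -0.42 to -0.16 for Dusp1. Ier2 was at -0.22 and Dusp1 at -0.19 without control mouse 2, and Dusp1 at -0.16 without surgery mouse 2.

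Over all genes, 1158 higher and 386 lower genes also passed the fold limits of 1.5 and 0.67, 1315 and 1350 passed without the filter, and 105 and 194 with the offsets, when 35.1% of calls were higher against 50.6% without them. Leaving out each mouse gave 1201 to 2025 higher and 1207 to 2080 lower genes, the lowest without control mouse 2, where 8 genes of the 5 lists were lower. In the 5 lists the offsets left 2 higher and 0 lower, the fold limits 5 and 0, and leaving out each mouse 10 to 17 higher and 8 to 24 lower. The offsets left 2 members higher and 0 lower with non-overlapping groups, where 21.7% and 30.9% of all genes tested had them.

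The labels tie the replicate numbers to no shared batch. Differences between mice 1 and 2 correlated across genes between the groups (r = 0.22), and with the replicate block 2655 genes were higher and 2626 lower, and none of the members passed. With the block and the offsets together 753 of 17144 genes were higher and 1582 lower, and 12 genes of the 5 lists were higher and 10 lower.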

Other observations

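The genes with the widest distance between the surgery mice, chosen after their values were seen, place Fos and Arc beside genes of other kinds. Among 12088 genes with a mean of at least 5 CPM, the ratio of surgery mouse 1 to surgery mouse 2 was highest for Col6a3, a collagen chain, at 2.94, and the 10 highest also held Gjb1 (2.05), a connexin of oligodendrocytes, and Tmem160 (2.49) and Glrx5 (2.08), which encode mitochondrial proteins. In the other direction, Fmod, a proteoglycan of connective tissue, was 6.94-fold higher in surgery mouse 2, and Slc22a6, an organic anion transporter, was 6.46-fold higher. Cd74, the invariant chain of MHC class II, was 5.36-fold and Lcn2, an acute phase protein, 5.95-fold higher in surgery mouse 2. Lcn2 had 1.25 CPM in surgery mouse 1 and 7.47 CPM in surgery mouse 2, against 7.72 and 6.29 CPM in the control mice.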
